A study of Mus musculus with 17 samples.

Results

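Cells of the fracture callus that carry the same labels were measured in 2 sets of arrays in this study, and the sets differed in genes of cartilage and fibrous tissue. The sets were told apart by the form of the sample titles. SIB and SIS have three-letter title codes, and SB and SS have two-letter codes. All 4 are labelled as sham callus from female C57BL/6 mice with sham operation and fracture. They are 4 of 17 Affymetrix whole-genome mouse arrays, of which 6 have two-letter codes, 7 have three-letter codes and 4 have codes of population and injury state. The labels and the methods do not say that the forms mark sets processed apart, nor whether SIB and SIS, or SB and SS, came from separate mice.

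Per the methods, mice were operated on at 8 weeks (ovaries exposed and left in place in sham animals, removed in ovariectomized, or OVX, animals), a pinned transverse femoral fracture was made at 14 weeks, and the callus was taken 7 days later. Mouse skeletal stem cells (mSSC) and bone, cartilage and stromal progenitors (mBCSP) were sorted 2 times after staining for CD45, Ter119, Tie2, AlphaV integrin, CD105, Thy1, 6C3 and CD200. The signs of the gates are not given in the sources used here. These populations are usually defined as positive for AlphaV integrin and negative for CD45, Ter119, Tie2, Thy1 and 6C3, with CD105 present on mBCSP and absent from mSSC. SIB and SB are mBCSP, and SIS and SS are mSSC. Each population of each set is 1 array, so SIB minus SB and SIS minus SS are 2 population-matched differences. Beside them, OB and OS (OVX callus, two-letter codes), EB and ES (OVX callus with estradiol, E2, two-letter codes) and OIB and OIS (three-letter codes) served for reference. OIB and OIS are titled OVX callus but carry a treatment label of sham and fracture, and are called OVX-titled here.

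A callus at this stage holds fibrous repair tissue and cartilage. Chondrocytes lay down type II, IX and XI collagens and aggrecan under Sox9, Sox5 and Sox6, then enlarge, express Ihh, Panx3, Col10a1 and Vegfa, and are replaced by bone as vessels enter. Fibroblastic cells of the callus express Pdgfra, Prrx1, periostin, tenascin and small proteoglycans. Blood cells and endothelium lie among them and carry CD45, Ter119 or Tie2.

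All values below are log2 signals of 1 probe set per gene, quantile normalized, with values below 5.95 set to that floor. A difference of 1 is 2-fold. The difference between the sets is the mean of SIB minus SB and SIS minus SS. Its standard error (SE) and p came from limma over all 17 arrays, in a model of 9 sets of samples and a population term with 7 residual degrees of freedom. They measure how the mSSC to mBCSP difference varied over 8 pairs of arrays and not the spread between mice. Where a fit leaves out 1 sham array, the population term of all pairs stands in for it. Such a result thus also rests on arrays outside the sham callus. Genes with an adjusted p (Benjamini-Hochberg, over all 14504 genes tested) under 0.05 are referred to as called. Lists of genes by tissue, cell type or process were chosen with earlier results of these data known. A list's share of called genes beside that of all genes is thus a description and not a test.

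The labels were first set against the sorted markers and the sex genes. Itgav, the AlphaV integrin subunit, was 11.89 in SIB, 12.37 in SB, 11.90 in SIS and 11.98 in SS. Eng, which encodes CD105, was 9.97 in SIB and 9.48 in SB, and 7.95 in SIS and 8.21 in SS, higher in both mBCSP arrays. Cd200 was 13.00 in SIB, 11.55 in SB, 13.23 in SIS and 12.27 in SS, and its difference between the sets of 1.20 ± 0.47 (SE) was not called (adjusted p = 0.24). Thy1, a marker the sort excludes, lay between 6.81 and 6.91 on the 4 arrays. Enpep, which encodes 6C3, was 8.74 in SB, 6.67 in SIB, 6.63 in SS and 5.98 in SIS. Ptprc, which encodes CD45, was 9.61 in SIB, 7.09 in SB, 9.73 in SIS and 7.77 in SS, so that it was above the floor on all 4 arrays. Its difference between the sets of 2.24 ± 0.69 was not called (adjusted p = 0.12). Xist was between 13.17 and 13.40, and the Y-linked Eif2s3y, Kdm5d and Uty were at the floor on the 4 arrays. In bulk samples, fewer cells of a type and less RNA per cell cannot be told apart.

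Arrays of a sham set resembled each other more than those of the other sham set. Across the 14504 genes, Spearman's rho was 0.956 between SIB and SIS and 0.957 between SB and SS, and between 0.910 and 0.927 between the sham sets. The 6 two-letter callus arrays, which include OVX and E2 mice, had rho of 0.956 to 0.977 with each other. The three-letter callus arrays did not form such a group, since rho of SIB or SIS was 0.888 to 0.928 with OIB or OIS and 0.908 to 0.934 with the two-letter callus arrays. Control probe sets also differed. The poly-A spike controls averaged 12.45 in SB, 12.77 in SS and 12.76 in SIB but 9.73 in SIS. The 3′ minus 5′ signal of Actb was 0.16 in SB, 0.16 in SS, 0.30 in SIB and 0.57 in SIS, and that of Gapdh was 0.17 to 0.32 on the 4 arrays. The part of these in the differences below was not tested.

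Of the 14504 genes, 173 were called higher in SIB and SIS (1.19%) and 249 lower (1.72%), 2.91% in all, and 2218 had an unadjusted p under 0.05. The median of all differences was -0.02. SIB minus SB and SIS minus SS had a Pearson's r of 0.54 and a Spearman's rho of 0.47 across genes, which are not independent replicates, and 64.9% of genes had the same sign in both. These counts rest on the spread borrowed from the other arrays. A fit to the 4 sham arrays alone, with 1 residual degree of freedom, called 0 genes (3060 at an unadjusted p under 0.05), and leaving out SIB called 11 higher and 25 lower, SB 28 and 31, SIS 31 and 60, and SS 14 and 28. Without SI and BI, the callus arrays of unstated surgery, 514 were called higher and 559 lower.

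**Figure D1:**
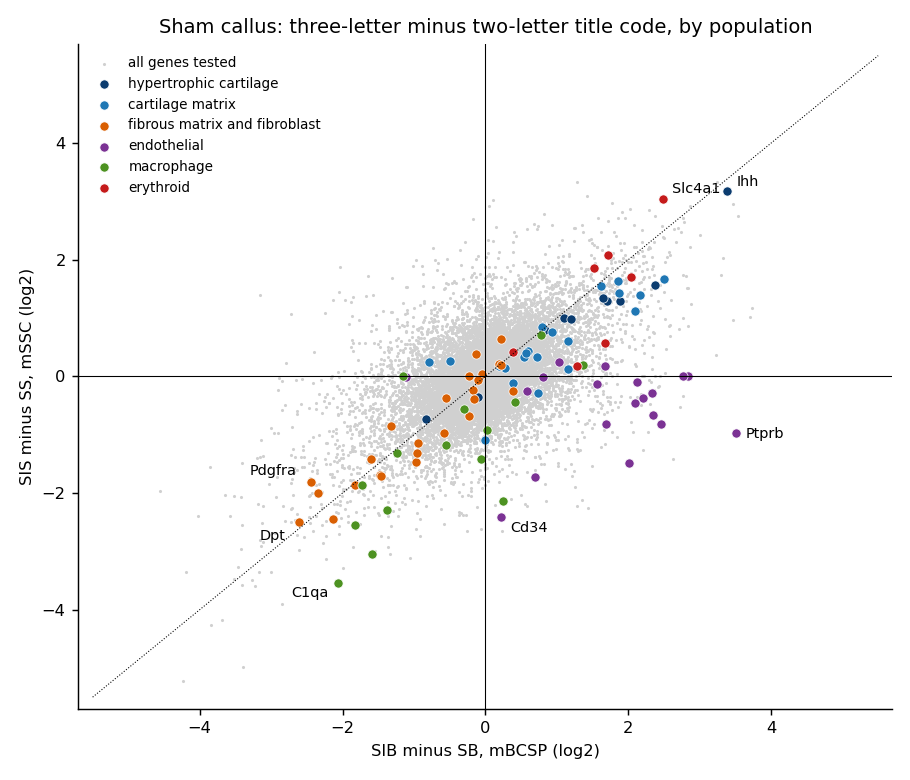
Each point is a gene, with SIB minus SB (mBCSP) on the x axis and SIS minus SS (mSSC) on the y axis, in log2 units, and members of 6 gene lists in colour. The dotted line marks equal differences. Cartilage genes lie to the upper right and fibrous genes to the lower left in both populations, while endothelial genes lie to the right and near or below 0 on the y axis.

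Cartilage genes were higher in SIB and SIS than in SB and SS, and of the 3 cartilage lists that of the hypertrophic stage had the highest median difference, 1.29. Over the lists of cartilage matrix, chondrocyte regulators and hypertrophic cartilage, 36 of 42 genes tested were higher, 34 of them in both populations. The 64.9% of all genes with the same sign in both includes those lower in both, so it is not a like background. Called higher were 6 members, against 1.19% of all genes, and 0 were called lower. None of the 6 was called in all 4 fits that leave out 1 sham array, and Ihh was in 2. Ihh, the Indian hedgehog ligand of prehypertrophic chondrocytes, was 12.44 in SIB, 9.05 in SB, 12.58 in SIS and 9.40 in SS. It was thus 3.28 ± 0.41 (SE) higher, or 9.73-fold, with an adjusted p of 0.0029. The 6 two-letter callus arrays lay between 9.05 and 9.86, and OIB and OIS at 12.16 and 12.60. Among genes of the same pathway, the hedgehog receptor and target Ptch1 was 13.22 in SIB, 11.71 in SB, 13.42 in SIS and 12.35 in SS (1.29 ± 0.36, adjusted p = 0.088). The target Gli1 was 9.99 in SIB, 9.05 in SB, 8.81 in SIS and 8.88 in SS, so that the populations differed in sign.

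The hypertrophic list had 8 of 10 members higher in both populations, with medians of 1.42 in SIB minus SB and 1.14 in SIS minus SS, and 2 called members, Ihh and Panx3. Panx3, a pannexin channel of hypertrophic chondrocytes and osteoblasts, was 13.20 in SIB, 10.83 in SB, 13.48 in SIS and 11.91 in SS (1.97 ± 0.39, adjusted p = 0.022), and its other 2 probe sets gave 1.74 and 1.81. Col10a1, the collagen of hypertrophic cartilage, was 14.93 in SIB, 13.23 in SB, 14.92 in SIS and 13.62 in SS. Its difference of 1.50 ± 1.41 was not called (adjusted p = 0.71). The SE is that of all 8 pairs, among them SI at 13.42 and BI at 7.29. The 6 two-letter callus arrays lay between 13.23 and 13.87, and OIB and OIS at 15.04 and 14.99. Vegfa, the vessel growth factor of hypertrophic cartilage, was 0.82 ± 0.21 higher without being called (adjusted p = 0.064). Mmp13, a collagenase of the late hypertrophic zone, ran the other way in both populations, at -0.84 and -0.73 (adjusted p = 0.15).

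Among chondrocyte regulators, 10 of 11 genes were higher in both populations, the median difference was 1.17, and Fgfr3 and Gdf5 were called. Fgfr3, a receptor that restrains chondrocyte proliferation, was 13.52 in SIB, 11.45 in SB, 13.82 in SIS and 11.77 in SS (2.06 ± 0.34, adjusted p = 0.011). Gdf5, a BMP family ligand of joint and early cartilage, was 12.32 in SIB, 10.95 in SB, 12.47 in SIS and 10.90 in SS (1.46 ± 0.32, adjusted p = 0.036). Sox9, the master regulator of cartilage, was 12.48 in SIB, 10.95 in SB, 12.49 in SIS and 11.35 in SS, a difference of 1.33 ± 0.43 that was not called (adjusted p = 0.14). Its other 2 probe sets ranged from -0.11 to 1.52. Barx1 alone was lower in both, at -0.77 and -0.64.

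The cartilage matrix list was higher in 18 of 21 members, 16 of them in both populations, with medians of 0.74 in SIB minus SB and 0.41 in SIS minus SS. Col11a2, a type XI collagen chain, was called at 14.58 in SIB, 12.73 in SB, 14.30 in SIS and 12.67 in SS (1.74 ± 0.35, adjusted p = 0.025). Snorc, a chondrocyte proteoglycan, was called at 12.66 in SIB, 10.79 in SB, 12.55 in SIS and 11.12 in SS (1.65 ± 0.32, adjusted p = 0.022). Col2a1, the main cartilage collagen, was not called (-0.55 ± 0.30, adjusted p = 0.44). It was 15.34 in both SIB and SB, and 14.56 in SIS against 15.65 in SS. Epyc, Matn1, Chad and Col9a2 had differences of 2.09, 1.78, 1.61 and 1.58 and were not called (adjusted p between 0.11 and 0.31). Genes of bone matrix and osteoblasts had no common direction, with 6 of 13 higher, medians of -0.03 and 0.00, and 0 called. Within them Smpd3, a sphingomyelinase needed for mineralization, was 14.29 in SIB, 12.19 in SB, 14.54 in SIS and 12.55 in SS (2.04 ± 0.53, adjusted p = 0.071), and Sp7, the osteoblast factor osterix, was 1.21 ± 0.33 higher (adjusted p = 0.082). Bmp2, a bone morphogenetic protein that the study names, was called at 12.46 in SIB, 10.64 in SB, 12.58 in SIS and 10.62 in SS (1.89 ± 0.41, adjusted p = 0.032).

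**Figure D2:**
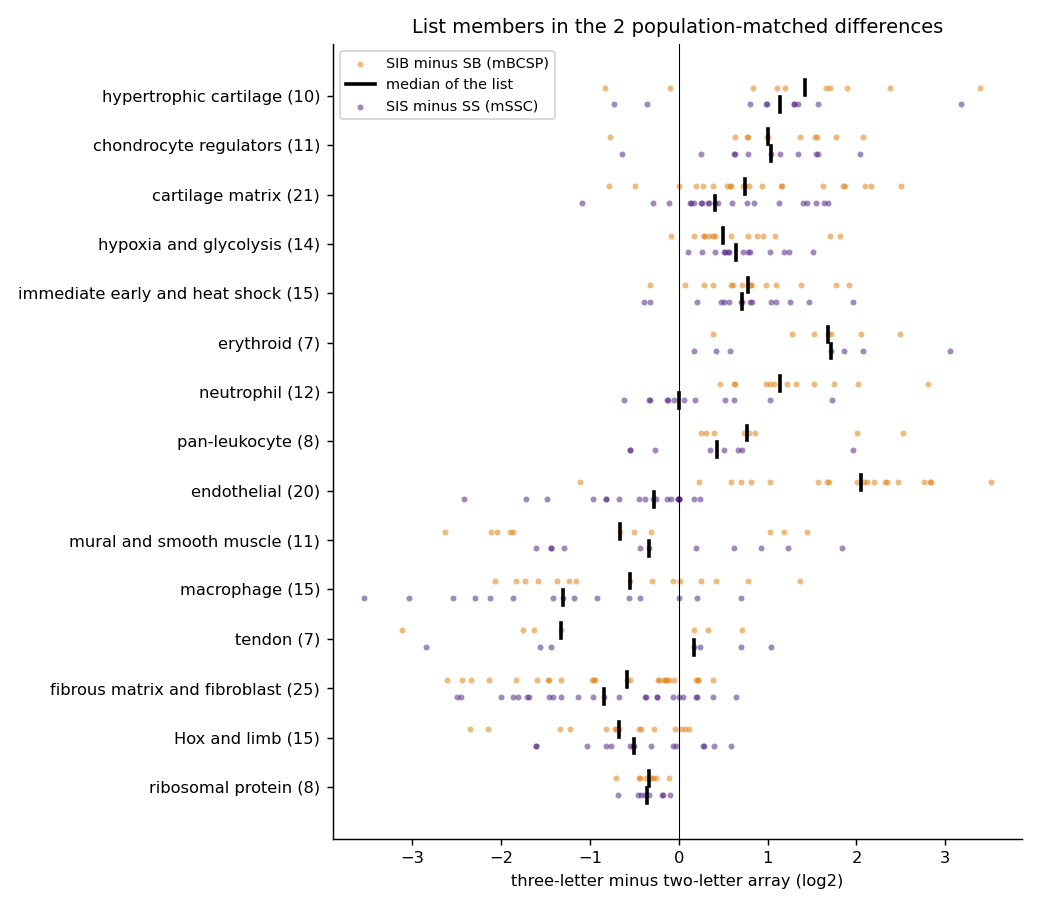
Log2 differences of the members of 15 gene lists (number tested in brackets) in SIB minus SB (orange) and SIS minus SS (purple), with a black bar at each median. The cartilage medians lie between 0.41 and 1.42, the fibrous medians at -0.58 and -0.85, and the endothelial medians at 2.05 and -0.28.

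A set of fibrous genes was lower in SIB and SIS. Of 25 fibroblast and fibrous matrix genes tested, 20 were lower, 18 of them in both populations, and 8 were called lower and 0 higher, or 32% of the list against 1.72% of all genes. The medians were -0.58 in SIB minus SB and -0.85 in SIS minus SS. Dpt, which encodes the matrix protein dermatopontin, was 11.21 in SIB, 13.81 in SB, 10.60 in SIS and 13.10 in SS, 5.85-fold lower (-2.55 ± 0.45, adjusted p = 0.014). S100a4, a calcium-binding protein of fibroblasts, was 10.48 in SIB, 12.82 in SB, 10.54 in SIS and 12.54 in SS (-2.17 ± 0.29, adjusted p = 0.0037). Pdgfra, the PDGF receptor of mesenchymal cells, was 9.91 in SIB, 12.35 in SB, 10.02 in SIS and 11.83 in SS (-2.13 ± 0.39, adjusted p = 0.018). No called fibrous gene was called in all 4 fits that leave out 1 sham array, and S100a4 was in 1. For Dpt, S100a4 and Pdgfra the 6 two-letter callus arrays lay above the 4 three-letter callus arrays without overlap. These genes were named for calls that rest on the sham arrays among them, and the share of all genes that separate so was not counted.

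The other called members were matrix proteins and their modifiers. The lysyl oxidase Loxl1 differed by -1.85, the small proteoglycan Ogn (osteoglycin) by -1.59, the surface protease Fap by -1.22, thrombospondin 2 (Thbs2) by -1.09 and tenascin C (Tnc) by -1.04, with adjusted p between 0.020 and 0.047. None of the following abundant members was called. Col3a1 differed by -0.23 in SIB minus SB and -0.68 in SIS minus SS, Col6a1 by 0.19 and 0.21, Col12a1 by -0.05 and 0.05, and Postn (periostin) by -0.16 and -0.38. The other probe set of Col3a1 gave -1.11. Col14a1, which the study names, was 10.43 in SIB, 12.57 in SB, 9.77 in SIS and 12.22 in SS, and with an SE of 0.79 its difference of -2.29 was not called (adjusted p = 0.17). Fbn2 (fibrillin 2), also named by the study, was 10.41 in SIB, 12.01 in SB, 10.13 in SIS and 11.54 in SS (-1.51 ± 0.42, adjusted p = 0.090).

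Tendon genes split. Tnmd (tenomodulin), a membrane protein of tendon and ligament, was 10.22 in SIB, 13.33 in SB, 10.79 in SIS and 13.63 in SS, 7.87-fold lower (-2.98 ± 0.42, adjusted p = 0.0058). Thbs4, a thrombospondin of tendon, was 12.05, 13.68, 12.04 and 13.48 in the same order (-1.54 ± 0.22, adjusted p = 0.0058), and Scx (scleraxis), the tendon transcription factor, was 7.43, 9.19, 7.74 and 9.31 (-1.66 ± 0.39, adjusted p = 0.046). These 3 of 7 members were called lower, against 1.72% of all genes, and 1, Egr1, which is also an immediate early gene, was called higher, against 1.19%. Fmod (fibromodulin) was 0.33 and 0.24 higher without being called, and Tnxb differed by -1.32 in SIB minus SB and 0.17 in SIS minus SS.

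Of 11 contractile and mural genes, 8 had a difference below 0 and 3 above it. Called lower were 3, against 1.72% of all genes, and called higher 1, against 1.19%. Acta2, smooth muscle actin, was 10.98 in SIB, 13.09 in SB, 11.70 in SIS and 13.14 in SS (-1.78 ± 0.35, adjusted p = 0.022), but its other 2 probe sets gave 0.00 and 0.38. Tagln (transgelin) differed by -1.60 ± 0.35 (adjusted p = 0.034) and Pdgfrb, the PDGF receptor of pericytes and stroma, by -1.75 ± 0.27 (adjusted p = 0.0085). Cspg4, the NG2 proteoglycan of pericytes and also of cartilage, went the other way at 13.88 in SIB, 12.44 in SB, 13.87 in SIS and 12.03 in SS (1.64 ± 0.23, adjusted p = 0.0058). SB and SS were thus above SIB and SIS in Acta2, Tagln and Pdgfrb and below them in Cspg4. Myh11, the smooth muscle myosin, was 9.63 in SIB, 8.61 in SB, 10.33 in SIS and 9.09 in SS, of the opposite sign to Acta2 and Tagln, and was not called (1.13 ± 1.02, adjusted p = 0.70).

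**Figure D3:**
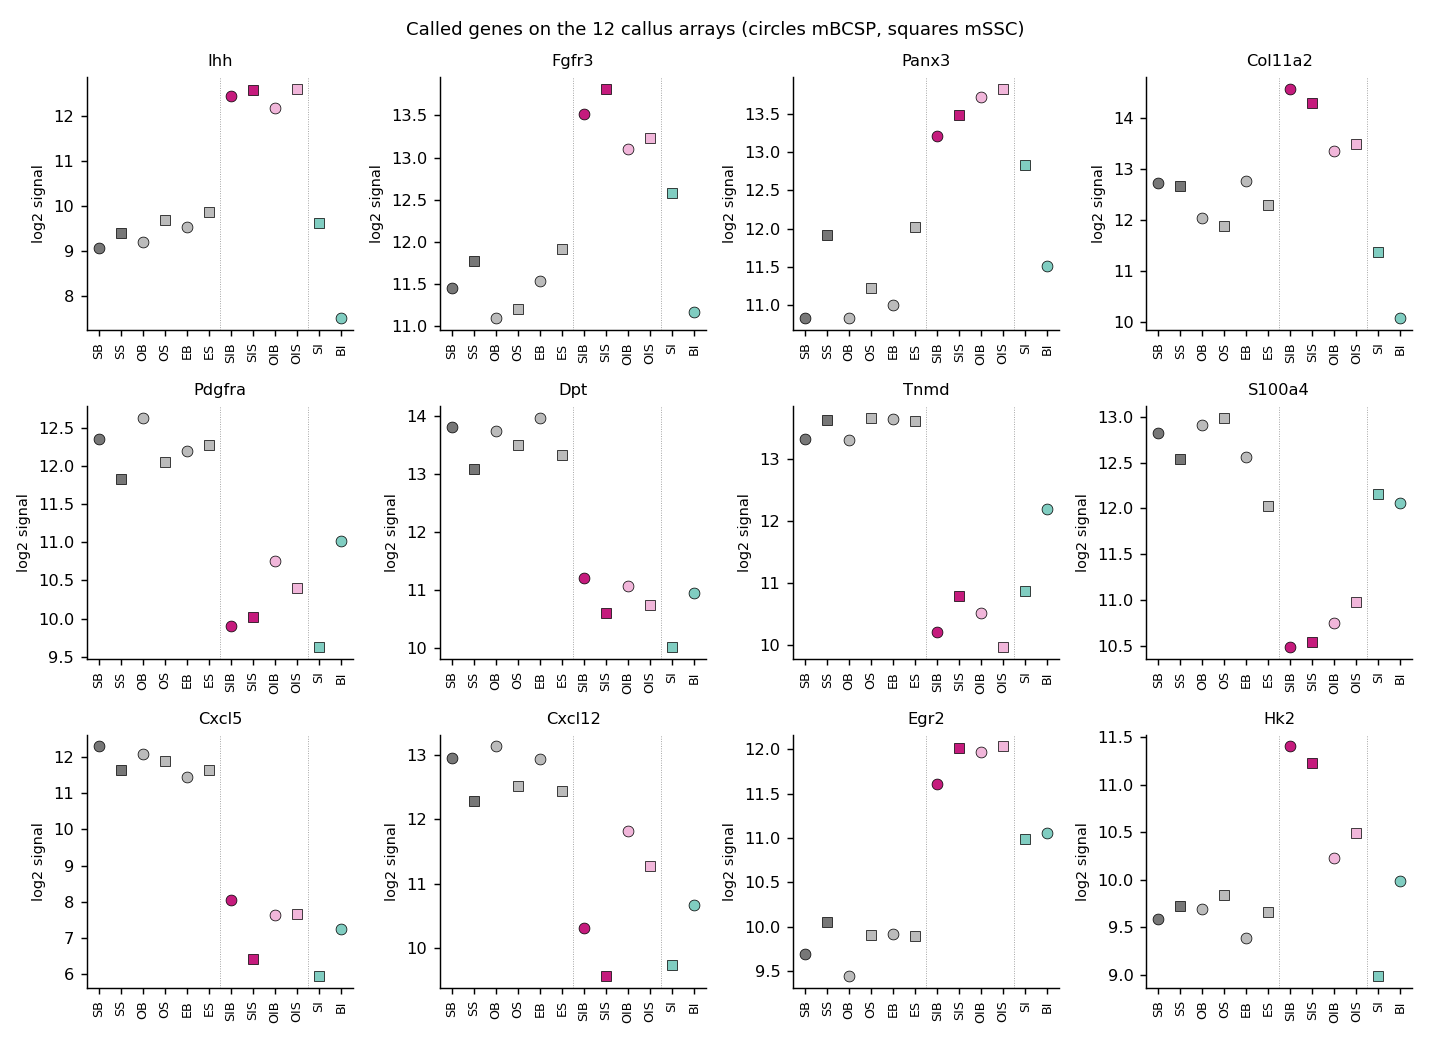
Log2 signal of 12 called genes on each of the 12 callus arrays, in order two-letter, three-letter and population-state title codes, with circles for mBCSP and squares for mSSC. Dark grey marks SB and SS, dark pink SIB and SIS. Ihh lies between 9.05 and 9.86 on the two-letter arrays and at 12.16 or above on the three-letter ones, and Dpt at 13.10 or above and at 11.21 or below.

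Vascular genes had higher values in SIB than in SB and close or lower values in SIS than in SS, and none was called. Of 20 endothelial genes, 19 were higher in SIB than in SB, with a median of 2.05, while the median in SIS minus SS was -0.28. Cdh5, the cadherin of endothelial junctions, was 12.33 in SIB and 10.32 in SB, and 6.40 in SIS and 7.88 in SS. Kdr, the VEGF receptor 2, was 10.95 in SIB and 8.75 in SB, and 7.02 in SIS and 7.40 in SS. Emcn (endomucin) was 9.87 in SIB and 7.04 in SB, and at the floor in SIS and SS. The exception in mBCSP was Esm1, at 6.53 in SIB and 7.64 in SB. Tek, which encodes Tie2, a marker the sort excludes, was 9.88 in SIB, 7.53 in SB, 6.56 in SIS and 7.22 in SS.

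With a count of 0 called in the 20, the difference between mSSC and mBCSP in it, tested as an interaction over 5 residual degrees of freedom, called 0 of 14504 genes by limma (0%, with 272 at an unadjusted p under 0.05). With the population term in place of the array left out, the median endothelial difference of 0.82 was -0.05 without SIB, 0.35 without SB and 1.80 without SIS. The mean level of the list was 10.61 in SIB, 8.87 in SB, 7.21 in SIS and 7.71 in SS. OIB stood with SIB at 11.71, while the mBCSP arrays OB and EB were at most 8.45 and the mSSC array OIS was 7.27. Both three-letter mBCSP callus arrays were thus above the two-letter mBCSP arrays in endothelial genes, and both three-letter mSSC arrays below the two-letter ones, of which the lowest was 7.60.

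Blood cell genes differed by lineage. The 7 erythroid genes tested had differences above 0 in both populations, with medians of 1.68 and 1.71, and 0 were called. Slc4a1, the red cell anion exchanger band 3, was 10.68 in SIB, 8.19 in SB, 11.08 in SIS and 8.03 in SS (2.77 ± 1.71, adjusted p = 0.51). Alas2, the erythroid heme synthesis enzyme, was 10.39, 8.34, 10.91 and 9.20 in the same order (1.88 ± 1.56, adjusted p = 0.66). On either gene the difference was under 2 times its SE. That SE is set by all 8 pairs and not by the sham callus arrays alone. Slc4a1 was 14.45 in BU and 7.46 in SU, uninjured arrays with population-state codes, but 11.90 in OIB and 13.48 in OIS. The mean level of the list was 8.68 in both SIB and SIS, at most 7.27 on the 6 two-letter callus arrays, and 9.88 and 11.30 in OIB and OIS. The median difference of 1.69 was 2.67 without SIB, 0.82 without SB, 0.76 without SIS and 0.58 with a floor at the 40th percentile. Values without a sham array also hold the population term of all pairs. For that term the pairs differed, since the list mean was 12.54 in BU and 6.98 in SU but lower in OIB than in OIS. These values therefore do not measure how far the difference rests on a single sham array.

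All 12 neutrophil genes tested had a difference above 0, but the median was 1.14 in SIB minus SB and 0.00 in SIS minus SS. Mmp8, the neutrophil collagenase, was the only one called, at 8.76 in SIB, at the floor of 5.95 in SB, 9.45 in SIS and 7.72 in SS. With SB at the floor its fitted difference of 2.27 ± 0.44 (adjusted p = 0.021) is a lower bound. S100a8, a calgranulin, was 11.72 in SIB, 10.50 in SB, 11.46 in SIS and 11.80 in SS. The list mean was 10.98 in SIB and 10.89 in SIS, within the 9.23 to 12.34 of the two-letter callus arrays. The median difference of 0.56 was 0.24 without SIB and 1.02 without SIS. Pan-leukocyte genes had medians of 0.76 and 0.43 with 0 of 8 called.

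Macrophage genes had differences of the other sign in 13 of 15 members, 9 of them in both populations, and 0 were called. C1qa, a complement chain made by macrophages, was 6.72 in SIB, 8.78 in SB, 6.56 in SIS and 10.11 in SS (-2.81 ± 0.84, adjusted p = 0.12). Csf1r, the receptor for the macrophage growth factor M-CSF, was 7.95, 9.78, 7.66 and 10.20 in the same order (-2.19 ± 0.66, adjusted p = 0.12). Fcer1g, an Fc receptor chain of many myeloid cells, was 9.38, 8.02, 9.35 and 9.15, higher in SIB and SIS. The macrophage list mean was 7.84 in SIB and 7.81 in SIS, the lowest of the 12 callus arrays, of which the highest was 9.91. The median difference of -0.86 was -1.33 without SB and -0.45 with a floor at the 40th percentile. The osteoclast, lymphoid and platelet lists had medians of -0.06, 0.08 and -0.11 with 0 called. The part that blood cells, macrophages and endothelium had in the cartilage and fibrous differences was not tested.

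**Figure D4:**
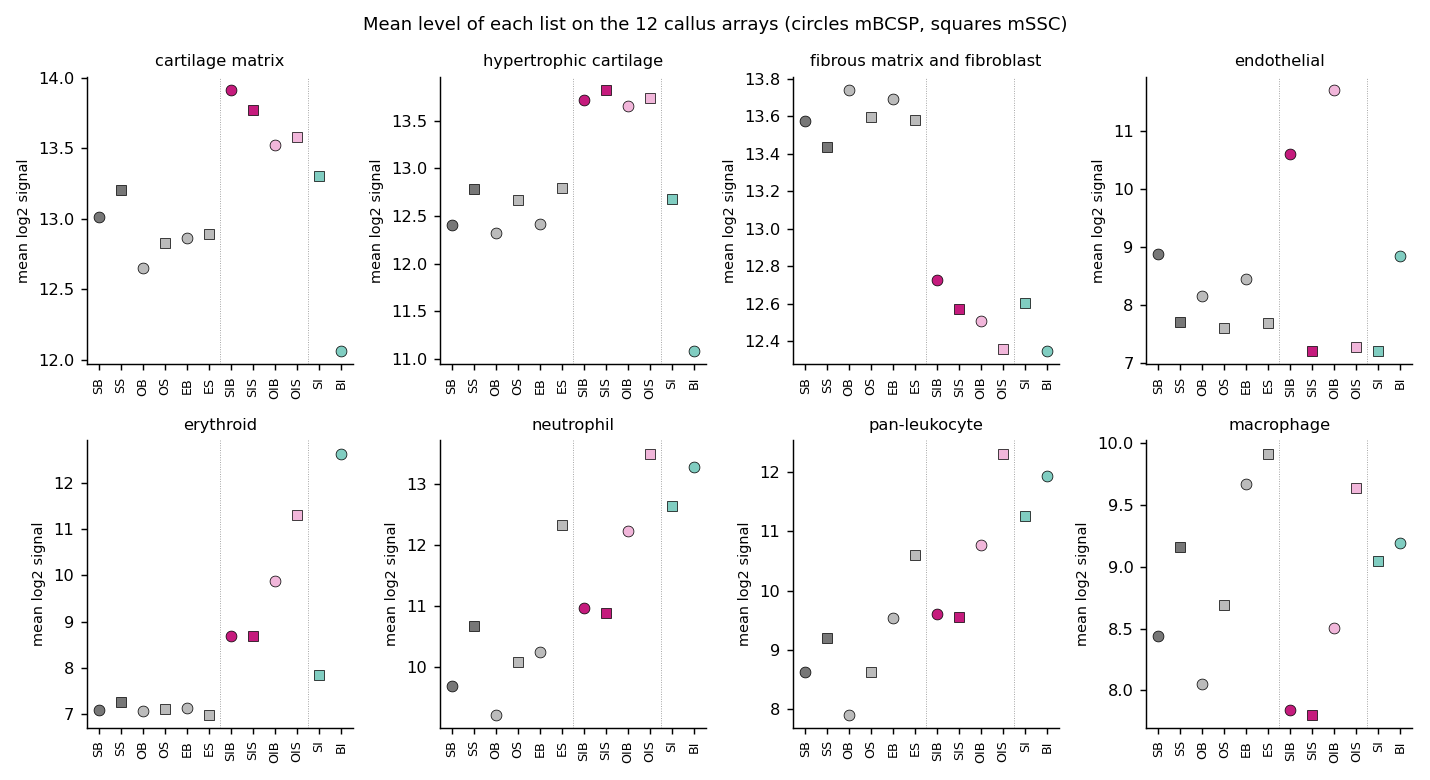
Mean log2 signal of the members of 8 gene lists on each of the 12 callus arrays, with symbols and colours as in the plot of called genes by array. SIB and SIS lie together in every list shown except the endothelial one, at 10.61 and 7.21.

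A set of immediate early genes was higher in SIB and SIS. Of 15 immediate early and heat shock genes, 14 were higher and 5 were called higher, or 33.3% against 1.19% of all genes. Egr2, an immediate early transcription factor, was 11.60 in SIB, 9.69 in SB, 12.01 in SIS and 10.05 in SS (1.94 ± 0.32, adjusted p = 0.011). The orphan receptor Nr4a1 was 1.61, Fosb 1.03, Zfp36 0.93 and Egr1 0.88 higher (adjusted p between 0.013 and 0.025). The heat shock genes Hspa1a and Hspa1b differed by -0.36 and 0.03.

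All 14 hypoxia and glycolysis genes had a difference above 0, with a median of 0.58, and 2 were called higher, against 1.19% of all genes. Hk2 (hexokinase 2) was 11.41 in SIB, 9.59 in SB, 11.23 in SIS and 9.73 in SS (1.66 ± 0.35, adjusted p = 0.029), and Pfkl, a phosphofructokinase, was 1.07 ± 0.22 higher (adjusted p = 0.029), though its other 2 probe sets ranged from -0.49 to 0.91. Car9, a carbonic anhydrase induced by low oxygen, was 11.40 in SIB, 9.70 in SB, 11.13 in SIS and 10.10 in SS and was not called (1.36 ± 0.64, adjusted p = 0.35). Slc2a1, the glucose transporter GLUT1, was 13.52 in both SIB and SIS, 12.64 in SB and 12.71 in SS.

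Among genes of limb position, 12 of 15 were lower and 1 was called. Tbx4, the hindlimb T-box factor, was at the floor of 5.95 in SIB, 8.09 in SB, 6.59 in SIS and 7.62 in SS. With SIB at the floor its fitted difference of -1.59 ± 0.33 (adjusted p = 0.029) bounds the decrease from below. Hoxa11, a gene of the middle limb segment, was 6.75, 9.10, 8.10 and 9.71 in the same order (-1.98 ± 0.49, adjusted p = 0.059). The 8 ribosomal protein genes had differences below 0 in both populations, with a median of -0.38 and 0 called. The cell cycle list had 6 of 15 higher and 9 lower, 8 of these in both populations, with a median of -0.15 and 0 called. Mki67 was higher, at 11.30 in SIB, 10.40 in SB, 11.34 in SIS and 10.16 in SS. Pcna was lower, at 12.17 in SIB, 12.65 in SB, 12.31 in SIS and 13.01 in SS. Cxcl12, the chemokine that retains blood stem cells in marrow, was 10.31 in SIB, 12.95 in SB, 9.57 in SIS and 12.28 in SS (-2.67 ± 0.47, adjusted p = 0.014), though its other 2 probe sets ranged from -1.73 to 0.43. It was the only called gene of 10 in the marrow stroma and fat list. Of 8 interferon response genes 6 were lower and 0 called, and of 9 muscle genes 5 were lower and 0 called. Esr1 and Esr2, the estrogen receptors, differed by 0.22 and -0.09 and were not called.

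Over all genes, the 12 called genes of largest difference in each direction included secreted proteins, receptors and transporters. Of these the largest was Cxcl5, a neutrophil-attracting chemokine, at 8.06 in SIB, 12.29 in SB, 6.43 in SIS and 11.64 in SS, 26.5-fold lower (-4.73 ± 0.45, adjusted p = 0.0010). Ptgfr, the receptor for prostaglandin F2alpha, was 6.33, 10.17, 6.54 and 10.79 in the same order (-4.05 ± 0.28) and had the smallest adjusted p of all, 2.0e-04. Its 4 other probe sets gave -2.79 to -1.25. Ptn (pleiotrophin), a heparin-binding growth factor, was 9.08, 12.61, 9.12 and 12.59 (-3.50 ± 0.28, adjusted p = 5.8e-04), and Hgf (hepatocyte growth factor) was 6.69, 10.15, 6.68 and 9.95 (-3.37 ± 0.31, adjusted p = 0.0010). In all 4 genes both three-letter arrays lay below both two-letter ones, which their choice by size and sign of the differences favours. These 4, with Snap25, Gzme, AW551984, Hpca and Il17b, were called in every fit that leaves out 1 sham array. The others were Snap25, a SNARE protein (-4.19), Gzme, a granzyme (-3.93), AW551984 (-3.77), Calcrl, the receptor for adrenomedullin and CGRP (-3.50), Cyp1b1, a cytochrome P450 (-3.40), Hpca, a neuronal calcium sensor (-3.38), Gm2115 (-3.27) and Nap1l5, which was at the floor in SIB and SIS and so at least 9.61-fold lower. Snap25 and Gzme were at the floor in SIS and Gm2115 in SIB, so that their differences are lower bounds in size and their rank is not exact. The other 2 probe sets of Calcrl gave -0.32 and -0.11.

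In the other direction, Cdh19, a cadherin of Schwann cells and their precursors, was 10.13 in SIB, 6.89 in SB, 10.61 in SIS and 7.27 in SS (3.29 ± 0.69, adjusted p = 0.030). Sox10, which defines Schwann cells, was 7.92, 7.94, 8.17 and 8.08, and S100b was 0.92 ± 0.71 higher without being called. Chit1, a chitinase of macrophages, was 11.30 in SIB, 7.76 in SB, 11.19 in SIS and 8.44 in SS (3.14 ± 0.39, adjusted p = 0.0029), while 13 of 15 macrophage genes were lower. Il17b, a cytokine of the interleukin 17 family, was 11.41, 8.67, 11.28 and 8.81 (2.60 ± 0.26, adjusted p = 0.0014). The others were Slfn4, a schlafen of myeloid cells (3.21), Wscd2 (2.90), Shisa4 (2.74), the sodium and calcium exchanger Slc8a3 (2.72), Lrtm2 (2.68), the forkhead factor Foxa3 (2.62), the sulfate transporter Slc13a4 (2.59) and the kinase Map3k21 (2.56). Slfn4 was at the floor in SB, so that its difference is a lower bound.

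The same title forms were compared in OVX-titled callus, which shares no array with the sham comparison but shares its estimate of the spread. The poly-A spike controls averaged 9.28 in OIB and 9.74 in OIS, against 12.17 in OB and 12.74 in OS. The 3′ minus 5′ signal of Actb was 0.72 in OIB and 0.53 in OIS, against 0.31 in OB and 0.32 in OS. The part of these in the comparison was not tested. OIB and OIS minus OB and OS called 351 genes higher (2.42%) and 336 lower (2.32%). Of the 422 genes called in sham callus, 398 had the same sign there, against 67.6% of all genes, and 211 were also called, which is 50% of the sham calls and 30.7% of the 687 calls in OVX-titled callus. Of these, 210 had the same direction. The exception was Nhsl2, at -1.93 in sham callus and 1.81 in OVX-titled callus. Ihh differed by 2.95 there, Fgfr3 by 2.02, Col11a2 by 1.47, Tnmd by -3.24, Dpt by -2.71, S100a4 by -2.09, Pdgfra by -1.77 and Cxcl5 by -4.34, and all 8 were called. Because OIB and OIS carry conflicting labels of surgery, a difference between the sets and one between sham and OVX mice cannot be told apart in this comparison.

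Blood cell lists differed in how their medians compared with sham callus. The erythroid median was 4.10 there against 1.69, the neutrophil median 3.02 against 0.56 and the pan-leukocyte median 3.78 against 0.55, with 9 of 12 neutrophil and 7 of 8 pan-leukocyte genes called higher. The macrophage median had the other sign there, 0.46 against -0.86, with 3 of 15 called higher, and the platelet median was -0.41 against -0.11. Ptprc was 12.02 in OIB, 6.58 in OB, 13.53 in OIS and 8.31 in OS. The medians in OVX-titled and sham callus were 1.16 and 1.29 for hypertrophic cartilage, 0.40 and 1.17 for chondrocyte regulators, 0.75 and 0.52 for cartilage matrix, and -1.13 and -0.78 for fibrous genes. The difference between the 2 differences, tested gene by gene, called 0 genes by limma (0%). There were 861 at an unadjusted p below 0.05, and 0.16 was the lowest adjusted value. The genes of smallest p with a lower difference in sham callus were Calcrl (-4.74), Nhsl2 (-3.74), the interleukin 1 family cytokine Il1f9 (-3.53), Cd53 of leukocytes (-3.21) and the lysozyme Lyz2 of myeloid cells (-2.78). Those with a higher one were Zfpm2 (2.87), Lrrc75b (1.79), Fbxw7 (1.66), the vitamin D receptor Vdr (1.61) and Mia3 (1.25).

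**Figure D5:**
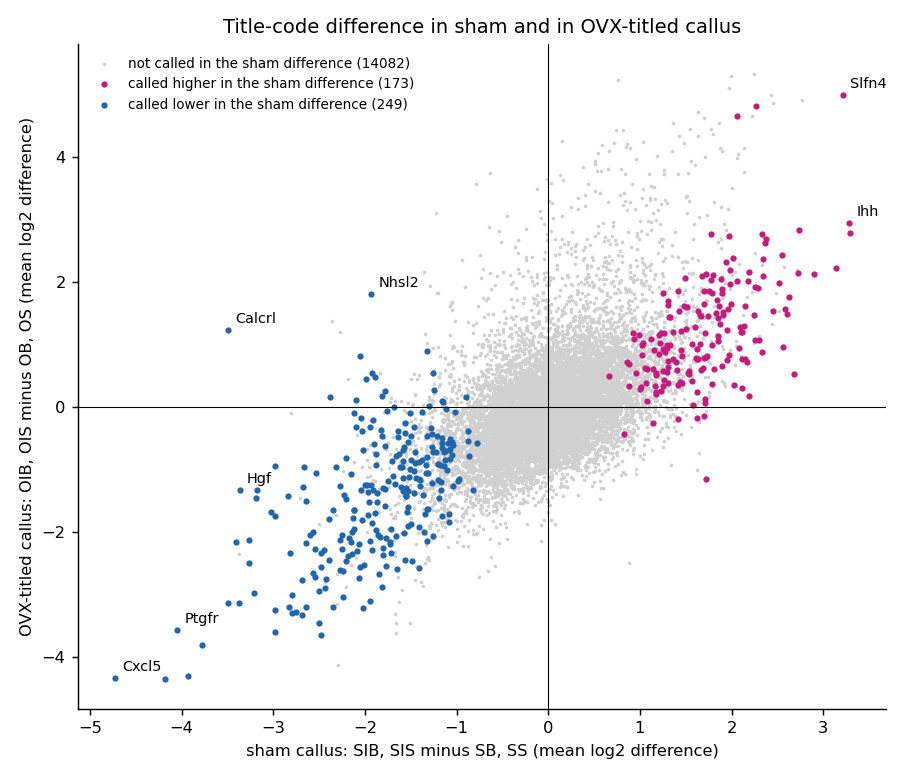
Each point is a gene, with the three-letter minus two-letter difference in sham callus on the x axis and in OVX-titled callus on the y axis, both in log2 units. Genes called in sham callus are pink (173 higher) and blue (249 lower), and 398 of these 422 have the same sign on both axes.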

How the data were processed

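Total RNA of sorted callus cells was amplified in 2 rounds and hybridized to Affymetrix whole-genome mouse arrays, per the methods; the labels name a standard labelling protocol and no added amplification. The authors deposited a log2 signal for each probe set. The submitters' processing notes name MAS5, without a version, while the authors' methods name dChip and Gene Expression Commons; which made the values is not settled here, and no genome build is given in the sources used here. Of 45101 probe sets, 64 were controls, 34945 had 1 gene symbol, 932 had several and 9160 had none in the platform annotation, and 34741 of those with 1 symbol matched a RefSeq gene identifier.

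Values were unlogged, quantile normalized over 17 arrays and logged again, and values under the 20th percentile (log2 of 5.95) were set to it. The probe set of highest mean stood for a gene, and of 18193 genes the 14504 that reached the 40th percentile (7.20) on 2 or more arrays entered limma 3.58.1 (R 4.3.3), with trended moderation, a term for each of 9 sets of samples and 1 for population, and an adjusted p threshold of 0.05. The steps were tested on simulated data. The interaction of set and population, and the difference between the sham and OVX-titled differences, were further contrasts.

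The comparison and 27 gene lists (345 genes, 315 with a named probe set, 300 tested) were chosen with earlier results of these data known. Named genes were the 12 called genes of largest difference each way with the same sign in both populations, called members and the 6 members of largest difference in each list, the genes the study names, the sorted markers, the sex genes, and the 5 genes of smallest p each way in the further contrasts. Other members named in the text were chosen after their values were seen. Precision is limited by the number of arrays, 1 per population and set. Where nothing says that arrays came from separate mice, p-values measure only the spread between these arrays. Alternatives changed the normalization, floor, filter, probe set, arrays and moderation.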

Additional observations from a re-analysis of the deposited data

Results flagged for a closer look

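In 2 gene lists the median difference had opposite signs in the populations, beyond 0.1 on the log2 scale in each. For endothelial genes it was 2.05 in SIB minus SB (mBCSP) and -0.28 in SIS minus SS (mSSC), a gap of 2.32. For tendon genes it was -1.32 and 0.17, a gap of -1.49, with 3 of the 7 members lower and 3 higher in both populations and Tnxb alone differing in sign. Both tendon medians are the values of Tnxb, the middle member, so the gap is that of 1 gene. The difference between the populations was not tested for a list, and the test of single genes called none of 14504.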

How the results depend on the processing

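Over the processing settings tried, none of the 60 called genes named turned its sign. Among all 422 called genes, 3 of the 420 tested did not keep their sign with the probe set of widest range. With a floor at the 40th percentile, 1 of 422 did not. Settings that changed only arrays outside the sham callus, the population term or the moderation left the difference unchanged and could not turn it. All 422 called genes also had the same sign in both populations, which makes a turn less likely. Of the 30 named called genes with other probe sets, 3 had a probe set of the other sign. The medians of the 11 lists recomputed kept their direction, except that of the endothelial genes, which was -0.05 without SIB. The counts of called genes depended on the arrays in the fit. In sham callus 173 genes were called higher and 249 lower. Centring arrays on their medians called 114 higher, the probe set of widest range 106 higher, the 4 sham arrays alone 0 higher and 0 lower, and the fit without SI and BI 514 higher and 559 lower. Leaving out 1 of the 4 arrays gave 11 to 31 higher and 25 to 60 lower. Of the 60, 9 were called in all 4 of these fits (Cxcl5, Snap25, Ptgfr, Gzme, AW551984, Ptn, Hpca, Hgf and Il17b) and 38 in none, while Ihh and Tnmd were called in 2. Over these fits the cartilage matrix median was 0.46 to 0.86, the endothelial -0.05 to 1.80, the erythroid 0.76 to 2.67, the neutrophil 0.24 to 1.02, the macrophage -1.33 to -0.59 and the pan-leukocyte 0.36 to 0.75. The population term of all pairs enters each of these medians in place of the array left out. The fibrous median was -1.04 with the probe set of widest range, and the median of chondrocyte regulators 0.78 with the mean of all probe sets. The 0 calls between populations became 92 with no filter on dim genes, and the 0 calls between the sham and OVX-titled differences became 2 (Klk10 and Smco3). Without SI and BI the OVX-titled comparison called 1898 genes. Leaving out SI and BI left the differences themselves unchanged, so these counts moved only through the spread and degrees of freedom of the fit. The cause of the other shifts was not tested. The r of 0.54 between the population-matched differences was 0.53 to 0.53 under the 4 alternatives. The labels carry no replicate numbers to block on. The arrays were matched by population, a term of the model, and the fit to the 4 sham arrays alone is the analysis paired by population.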
